A study of Mus musculus with 18 samples.

Results

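The 10 genes described here are Socs1, Socs2, Socs3, Cish, Stat3, Osm, Osmr, Lif, Lifr and Clcf1, chosen by their symbols out of the 24419 symbols of the expression table. They cover 3 cytokines (oncostatin M, LIF and CLCF1), the receptor chains OSMR and LIFR, the transcription factor STAT3 and 4 inhibitors of the SOCS family. RNA-seq was done on left ventricle tissue, from the infarct after ligation, of 18 male C57BL/6 mice aged 8 weeks, 3 per group. No genetic alteration is named in the labels, and the mice were anaesthetised with sodium pentobarbital. The groups were a sham group, called Control in the labels, and 5 groups with acute myocardial infarction (AMI), in which the proximal part of the left anterior descending (LAD) artery was tied and the heart taken 10 min later, or at 1 h, 6 h, 24 h or 72 h. The mice of a group were separate animals. The tissue is a mixture of cell types, so a lower level from fewer cells of a type and from less RNA per cell cannot be told apart.

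Oncostatin M, LIF, CLCF1, IL-6, IL-11 and cardiotrophin-1 belong to the IL-6 family of cytokines, which signal through receptors that hold the shared chain gp130, encoded by Il6st. LIFR pairs with gp130 to receive LIF, and OSMR pairs with gp130 to receive oncostatin M. Binding activates Janus kinases (JAKs), which phosphorylate STAT3, and phosphorylated STAT3 enters the nucleus and switches on target genes. Socs3 is itself such a target, and its product binds gp130 and JAKs and shuts the signal down. SOCS1 restrains mainly interferon signalling, while SOCS2 and CIS (encoded by Cish) act chiefly on growth hormone and related receptors that signal through STAT5. In the heart, gp130 signalling is known for its part in the survival of cardiac myocytes under stress, and oncostatin M for its effects on their dedifferentiation.

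STAT dimers bind DNA at palindromes of the form TTCNNNGAA, where N is any base, and the promoters of SOCS genes are the textbook places to look for them. The promoter sequences of RefSeq on GRCm38.p6, from 250 bases before to 50 bases after a gene's start, were searched for that form and for the narrower TTCCNGGAA. Each form reads the same on both strands, and every match to TTCCNGGAA is also a match to TTCNNNGAA. An entry was found for 7 of the 10 genes, with none for Osm, Clcf1 and Socs2. TTCNNNGAA was present in 8.30% of 32851 promoters and in those of Cish and Socs3, while TTCCNGGAA was present in 1.15% and, among these genes, in that of Cish. Cish and Socs3 were the only genes of the 7 with a match, and the windows around their matches are shown. Capitals mark the matches, and the sequences run 5′ to 3′ along the gene.
Cish, chr9:107296654-107296683, plus strand: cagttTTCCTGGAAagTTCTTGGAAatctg
Socs3, chr11:117969502-117969530, minus strand: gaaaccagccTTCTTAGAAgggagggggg
The Cish window holds 2 matches, which begin 0 and 11 bases after the start of the RefSeq transcript. It lies within the gene's span in GENCODE M21 and overlaps an exon of the gene there. The match of Socs3 begins 154 bases before the start. The Socs3 window lies within the gene's span in GENCODE but in none of its exons. A match is a description of letters, and binding of a STAT there was not measured.

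Levels are FPKM, the fragments mapped to a transcript relative to its length and to all mapped fragments, as the authors deposited them. Read counts are not part of the table, the depth of the libraries is therefore unknown, and the FPKM of a mouse summed to between 542418 and 600467. Differences were tested by limma on log2(FPKM + 1), and a gene is called when its Benjamini-Hochberg adjusted p, over the whole table tested in that comparison, is under 0.05. A log2 fold change (log2FC) on that scale understates the change of genes with low FPKM, such as Osm. An exact permutation test of 3 mice against 3 cannot give a p below 0.1. All 10 genes passed the filter, which asked for 1 FPKM or more in any of the 18 mice, as did 13333 genes in all. Osm passed it only through replicates 1 and 3 at 6 h and replicate 3 at 24 h. Lif and Socs1 passed it only through mice from 6 h on. Osm, Lif and Socs1 thus entered the tests through groups in which they were high. Without the filter their calls against sham were kept. FPKM are relative, and the part of this in the medians that follow was not tested. The median log2FC of all genes against sham was -0.08 at 6 h, 0.13 at 24 h and 0.29 at 72 h. Median-of-ratios scaling moved these medians to -0.02, 0.01 and 0.05, and quantile normalization to -0.07, -0.04 and -0.10.

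Markers of the defining cell types showed heart muscle in all 18 mice and a change of other cells with time. The summed FPKM of 8 cardiomyocyte markers lay between 45164 and 47364 in the sham group and between 18151 and 22099 at 72 h, and all 8 fell at 72 h. For the 7 neutrophil markers with a value the sums were 2.56 to 5.30 in the sham group, 118 to 1006 at 6 h, 45.5 to 999 at 24 h and 56.8 to 70.1 at 72 h. The highest sums were those of replicate 1 at 6 h and replicate 3 at 24 h. The sums of 8 monocyte and macrophage markers rose from between 193 and 220 in the sham group to between 3503 and 4620 at 72 h, and those of 7 fibroblast markers from between 231 and 260 to between 3661 and 4792. The sums of 6 endothelial markers were 519 to 569 in the sham group and 421 to 534 at 72 h, and those of 6 T cell markers 0.773 to 1.20 and 4.86 to 7.90. Replicate 3 at 24 h also had the lowest cardiomyocyte sum of its group, 29811 against 37744 and 38006.

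The response was staged. At 10 min after ligation 0 of the 10 genes were called higher and 0 lower than sham, where 0.248% of all genes tested were called higher and 0.0978% lower. Socs2 had an unadjusted p of 0.0230 there (log2FC -0.16, adjusted p = 0.265), the single member with an unadjusted p under 0.05. At 1 h Socs3 alone was called, higher, against a background of 0.669% of genes higher and 0.0526% lower. At 6 h Osm, Lif, Clcf1, Osmr, Stat3 and Socs3 were called higher and Lifr lower, which is 6 of 10 in a background of 11.6% higher and 1 of 10 in a background of 16.8% lower. At 24 h 4 were called higher and 0 lower, where 26.2% and 11.4% of all genes were, and 8 had an unadjusted p under 0.05. At 72 h all 10 were called, 8 higher and 2 lower, with 53.1% of all genes higher and 24.2% lower, a time at which most of the genes tested were called. The background itself moved with the scaling. Median-of-ratios scaling gave 0.218% of genes higher and 0.150% lower for 10 min, 14.3% and 12.1% for 6 h, 18.6% and 17.8% for 24 h, and 40.1% and 34.8% for 72 h. With quantile normalization the shares were 0.286% and 0.211% for 10 min, 16.6% and 20.2% for 24 h, and 32.9% and 42.8% for 72 h. Of the 10 genes, under median-of-ratios scaling 6 were higher and 0 lower at 6 h, and under either scaling 4 were higher and 1, Lifr, lower at 24 h. The median log2FC of the 10 genes was 1.296 at 6 h, 1.14 at 24 h and 0.95 at 72 h.

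**Figure D1:**
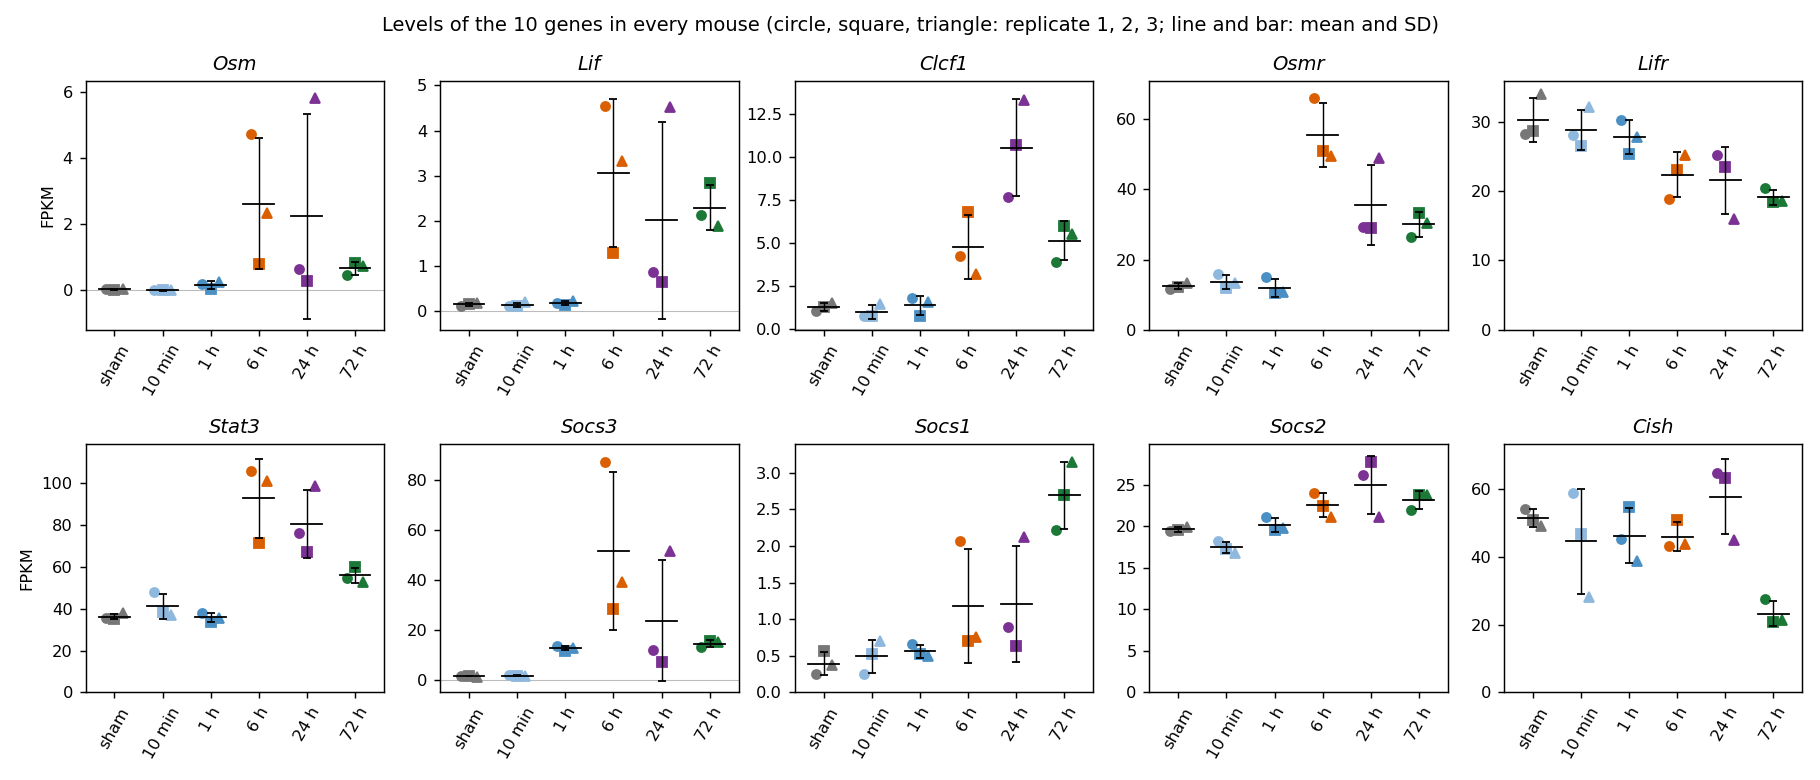
FPKM of the 10 genes (vertical axes, linear) in each of the 18 mice by group (horizontal axes), with circles, squares and triangles for replicates 1, 2 and 3 and black lines and bars for the group mean and SD of 3 mice. Socs3 lies above sham from 1 h on, Osm, Lif, Osmr and Stat3 from 6 h on, and Cish lies below sham at 72 h, where its 3 mice range from 20.8 to 27.6 FPKM.

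Between successive times, the first step, from 10 min to 1 h, changed Socs3 alone, 1 of 10 where 0.602% of all genes were called in either direction. From 1 h to 6 h 6 of 10 rose and 0 fell. Of all genes 20.5% were called there, 9.32% higher and 11.2% lower. From 6 h to 24 h 1 of 10 was called, Clcf1, higher, where 14.4% of all genes were, 12.5% higher and 1.94% lower. From 24 h to 72 h 4 of 10 were called, Socs1 higher and Clcf1, Stat3 and Cish lower. At that step 43.2% of all genes were called, 29.7% higher and 13.5% lower. Between 6 h and 72 h 6 of 10 were called, Socs1 higher and Osm, Osmr, Stat3, Socs3 and Cish lower. Of all genes 67.1% were called between these times, 50.3% higher and 16.7% lower. Under median-of-ratios scaling 0 were higher and 7 lower between 6 h and 72 h (all genes, 33.3% and 29.2%). Under quantile normalization 0 were higher and 8 lower there (28.8% and 34.3%). From 24 h to 72 h 0 were higher and 3 lower under quantile normalization (21.0% and 25.1%). The comparisons with sham share the 3 sham mice, and each time point enters more than 1 comparison.

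The ligands come first. Osm, encoding oncostatin M, which macrophages and neutrophils are known to secrete, lies at chr11:4236420-4241026 on mm10 by GENCODE M21. Its FPKM were 0.0390, 0.0133 and 0.0467 in the sham mice, 0.0160 in 1 mouse and listed at 0 in the others at 10 min, and 0.195, 0.0296 and 0.246 at 1 h. In the 6 h group the levels were 4.75, 0.795 and 2.34, in the 24 h group 0.640, 0.275 and 5.82, and in the 72 h group 0.459, 0.843 and 0.726. All mice from 6 h on lay above all sham mice, and the spread within the 6 h and 24 h groups was wide, with replicate 3 at 24 h at more FPKM than any other mouse. Osm rose at 6 h (log2FC 1.66, SE 0.37, adjusted p = 0.0166) and at 72 h (log2FC 0.69, SE 0.11, adjusted p = 3.65e-04). At 24 h the log2FC was 1.23 with an SE of 0.57 and an adjusted p of 0.127, and without replicate 3 of that group it was 0.49 with an adjusted p of 0.0257. The call at 6 h was lost when any 1 sham mouse was left out, with adjusted p from 0.0564 to 0.0569. Osm was higher at 6 h than at 1 h (log2FC 1.50, adjusted p = 0.0299) and lower at 72 h than at 6 h (log2FC -0.96, adjusted p = 0.0434), where the mice of the groups overlapped. The call of 6 h against 1 h was lost without any 1 of the 1 h mice, with adjusted p from 0.0755 to 0.0999, and without replicate 3 at 6 h, at 0.0633. The call of 72 h against 6 h was lost without replicate 1 or 3 at 6 h or any 1 of the 72 h mice, with adjusted p from 0.0769 to 0.119, without the filter (0.0896), with every mouse scaled to the same FPKM sum (0.0512) and with all 18 mice in one fit (0.0718). Without the filter the call of 6 h against 1 h was lost as well (0.0614). At 24 h against sham Osm was called with a pseudocount of 0.1 (log2FC 3.16, adjusted p = 0.0328) and with all 18 mice in one fit (0.0361).

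Lif, encoding leukemia inhibitory factor, is the neighbour of Osm, at chr11:4257557-4272514 on the same strand, with a gap of 16.5 kb and 0 protein-coding genes between them. Its FPKM were 0.109, 0.149 and 0.180 in the sham mice, 0.105 to 0.189 at 10 min and 0.145 to 0.230 at 1 h. Later groups had 4.55, 1.29 and 3.33 (6 h), 0.863, 0.641 and 4.52 (24 h) and 2.14, 2.85 and 1.89 (72 h). The mice ranked as for Osm at 6 h and at 24 h, with replicate 1 highest at 6 h and replicate 3 highest at 24 h. Lif rose at 6 h (log2FC 1.73, SE 0.29, adjusted p = 0.00646) and at 72 h (log2FC 1.51, SE 0.12, adjusted p = 4.86e-06). At 24 h its log2FC of 1.16 (SE 0.43) had an adjusted p of 0.0685, which was 0.00538 without replicate 3 of that group (log2FC 0.61) and 0.0467 without replicate 2 (log2FC 1.48). The rise from 1 h to 6 h was 1.68 on the log2 scale (adjusted p = 0.0103). From 24 h to 72 h its log2FC was 0.35 and not called, against 0.90 (adjusted p = 0.00194) without replicate 3 at 24 h, and from 6 h to 72 h it was -0.22, against -0.59 (adjusted p = 0.0195) without replicate 2 at 6 h and -0.81 (adjusted p = 0.0337) under quantile normalization. At 24 h against sham Lif was called with a pseudocount of 0.1 (log2FC 2.61, adjusted p = 0.0201) and with all 18 mice in one fit (0.0124). The balance of both ligands was not the same at the late time. The ratio of Lif to Osm FPKM was 0.959, 1.63 and 1.42 in the 6 h mice, 1.35, 2.33 and 0.776 in the 24 h mice, and 4.66, 3.38 and 2.60 in the 72 h mice. This ratio was looked at after the values were seen and is given without a test, and in it the 72 h mice lay above those of 6 h and 24 h.

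Clcf1 encodes cardiotrophin-like cytokine factor 1, which signals through CNTFR, LIFR and gp130. Its FPKM were 1.06, 1.32 and 1.53 in the sham mice, 0.769 to 1.46 at 10 min and 0.748 to 1.80 at 1 h. They were 4.26, 6.81 and 3.22 in the 6 h mice, 7.67, 10.7 and 13.3 in the 24 h mice, and 3.89, 6.00 and 5.55 in the 72 h mice. All 3 mice at 24 h lay above every other mouse, which was not so for Osm or Lif. It rose against sham at 6 h (log2FC 1.28, SE 0.22, adjusted p = 0.00674), at 24 h (log2FC 2.30, SE 0.19, adjusted p = 0.00146) and at 72 h (log2FC 1.40, SE 0.14, adjusted p = 2.87e-05). The step from 6 h to 24 h was 1.02 (adjusted p = 0.0447), and that from 24 h to 72 h was -0.90 (adjusted p = 0.0127). The call of 24 h against 6 h was lost when any 1 mouse other than replicate 1 at 24 h was left out (log2FC 0.82 to 1.26, adjusted p from 0.0756 to 0.127), and that of 6 h against 1 h (log2FC 1.26, adjusted p = 0.0178) without replicate 2 at 1 h (adjusted p = 0.0635). In GENCODE M21, Clcf1 (chr19:4214238-4223490) shares 9134 bases with a second protein-coding gene, AC109138.7, on the same strand, so that its fragments could be split between them and its level is uncertain.

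The other ligands of the family, from a list of IL-6 family genes, followed several courses. Il6 was listed at 0 in 2 sham mice and at 0.0171 in the other, and had 0.571, 0.702 and 0.492 FPKM at 1 h, so that it had left the sham level at a time when Osm and Lif still overlapped with sham (log2FC 0.66, SE 0.070, adjusted p = 0.00507). At 6 h Il6 had 14.1, 1.92 and 9.16 FPKM (log2FC 2.93, adjusted p = 0.00867), in the same order of mice as Osm and Lif. Il11 rose at 6 h (log2FC 0.83, adjusted p = 0.0171) to 1.38, 0.363 and 0.853 FPKM, and reached 6.81 FPKM in replicate 3 at 24 h. Ctf1, encoding cardiotrophin-1, a cytokine of cardiac myocytes, went the other way. It had 5.93, 6.72 and 4.16 FPKM in the sham mice and 2.62, 2.93 and 3.59 at 72 h (log2FC -0.69, adjusted p = 0.00326). The 72 h step of Ctf1 came with the fall of all 8 cardiomyocyte markers, whose part in it was not tested.

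Within the 6 h and 24 h groups, the mice stood in the same order in neutrophil markers as in Osm, Lif, Stat3, Socs3 and Socs1, but not as in Clcf1. In the 6 h group the sum of 7 neutrophil markers was 1006 in replicate 1, 118 in replicate 2 and 379 in replicate 3, the order in which Osm, Lif and Il6 stood. The monocyte and macrophage sums of these mice, 343, 160 and 245, stood in that order too, and the cardiomyocyte sums, 38068, 45955 and 42196, in its reverse. In the 24 h group the neutrophil sum was 217, 45.5 and 999 for replicates 1, 2 and 3, again the order of Osm and Lif. There the monocyte and macrophage sums, 514, 549 and 832, stood in another order. Clcf1 was highest in replicate 2 at 6 h, where the neutrophil sum was lowest, and second in replicate 2 at 24 h, where that sum was again lowest. At 72 h the neutrophil sums were 56.8, 70.1 and 68.9, below those of all 6 h mice, while Lif stood at 1.89 to 2.85 FPKM, above replicate 2 at 6 h. In all 18 mice the genes whose log2(FPKM + 1) was most like that of Osm were Mxd1 (Pearson r = 0.98), Cd177 (0.97) and Irg1 (0.97), of which Cd177 is a surface protein of neutrophils. For Lif they were Jak2 (0.98), Mmp8 (0.97), a collagenase of neutrophils, and Irak3 (0.96). These correlations are descriptions over 18 mice that share the steps between groups. The part of neutrophils or other cells in the levels of the ligands, Stat3, Socs3 and Socs1 was not tested.

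**Figure D2:**
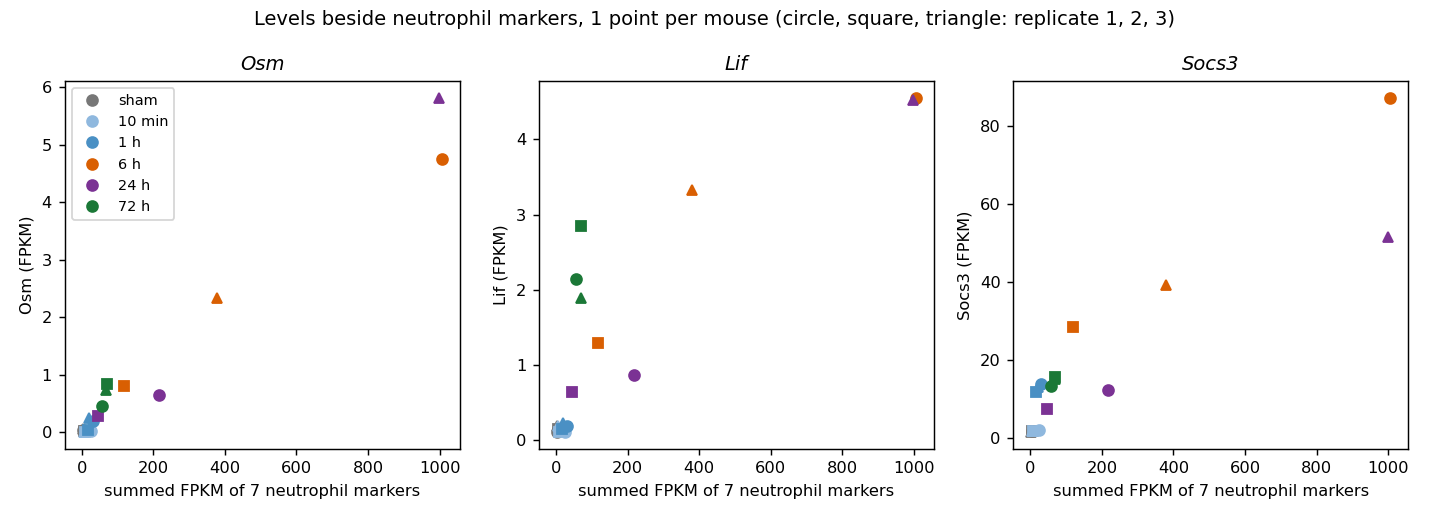
FPKM of Osm, Lif and Socs3 (vertical axes) against the summed FPKM of 7 neutrophil markers (horizontal axes) in 18 mice, coloured by group, with circles, squares and triangles for replicates 1, 2 and 3. Replicate 1 at 6 h and replicate 3 at 24 h stand at sums of 1006 and 999 with the highest levels, and the 72 h mice have Lif of 1.89 to 2.85 FPKM at sums of 56.8 to 70.1.

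The receptor chains went in opposite directions. Osmr lies at chr15:6813577-6874969 and Lifr at chr15:7090614-7197489, with a gap of 215.6 kb, opposite strands and 0 protein-coding genes between them. Osmr had 11.5, 12.3 and 13.2 FPKM in the sham mice, 11.9 to 15.8 at 10 min and 10.4 to 15.0 at 1 h. The 6 h mice had 66.0, 51.0 and 49.5, the 24 h mice 29.2, 28.9 and 48.9, and those of 72 h 26.4, 33.3 and 30.5. Every mouse from 6 h on lay above every mouse of the earlier groups, and the 6 h mice lay above all others. Osmr rose at 6 h (log2FC 2.07, SE 0.12, adjusted p = 2.33e-04), at 24 h (log2FC 1.42, SE 0.20, adjusted p = 0.00528) and at 72 h (log2FC 1.22, SE 0.095, adjusted p = 5.18e-06). It was higher at 6 h than at 1 h (log2FC 2.12, adjusted p = 8.22e-04) and lower at 72 h than at 6 h (log2FC -0.86, adjusted p = 8.14e-04). From 6 h to 24 h its log2FC was -0.66 and not called, and without replicate 3 at 24 h it was -0.90 with an adjusted p of 0.0253.

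Lifr had 28.2, 28.7 and 34.0 FPKM in the sham mice, 26.5 to 32.1 at 10 min and 25.3 to 30.3 at 1 h. In the 6 h group the levels were 18.9, 23.0 and 25.2, in the 24 h group 25.2, 23.5 and 16.0, and in the 72 h group 20.4, 18.4 and 18.5. All mice from 6 h on lay below all sham mice, and the lowest level was that of replicate 3 at 24 h. Lifr fell at 72 h to 63.1% of the sham mean (log2FC -0.63, SE 0.087, adjusted p = 1.65e-04). The fall at 6 h was near the threshold (log2FC -0.43, SE 0.13, adjusted p = 0.0414). It was not called without any 1 of the sham mice or without replicate 1 or 2 at 6 h (adjusted p from 0.0622 to 0.141), nor without the filter (0.0641) nor under median-of-ratios scaling (0.0590). At 24 h the log2FC was -0.49 with an adjusted p of 0.0607, and 0.0377 without replicate 1 of that group. Lifr at 72 h against 24 h (log2FC -0.14) was called without replicate 3 at 24 h (log2FC -0.33, adjusted p = 0.0241), and against 6 h (log2FC -0.21) without replicate 1 at 6 h (log2FC -0.32, adjusted p = 0.0268), under median-of-ratios scaling (log2FC -0.57, adjusted p = 0.00346) and under quantile normalization (log2FC -0.56, adjusted p = 0.00546). At 24 h against sham it was called under these scalings too (log2FC -0.64 and -0.66, adjusted p of 0.0348 and 0.0403) and with all 18 mice in one fit (0.0104).

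Because FPKM are per length, both chains can be set side by side within a mouse. In the sham mice Lifr was the more abundant, with a ratio of Osmr to Lifr of 0.407, 0.429 and 0.389, and the ratio was 0.415 to 0.564 at 10 min and 0.384 to 0.494 at 1 h. Later groups had 3.50, 2.21 and 1.96 (6 h), 1.16, 1.23 and 3.06 (24 h) and 1.29, 1.81 and 1.65 (72 h). Osmr thus exceeded Lifr in all 9 mice from 6 h on and in 0 of the 9 earlier mice. This ratio was formed after the values were seen and has no test of its own, and a scaling of whole libraries leaves it as it is.

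The chains that pair with these moved at other times or to another extent. Il6st, which encodes gp130, was the most abundant of the receptor genes on the list of this family, at 74.6, 77.0 and 74.1 FPKM in the sham mice and 115, 74.5 and 98.7 at 6 h, where the groups overlapped (log2FC 0.33, adjusted p = 0.133). It had 91.9, 121 and 97.9 FPKM at 72 h (log2FC 0.45, adjusted p = 0.00312). Il6ra, the IL-6 receptor alpha chain, stood at 0.597 to 0.991 FPKM in the sham mice and rose at 6 h (log2FC 0.69, adjusted p = 0.0454), 24 h (0.89, adjusted p = 0.0434) and 72 h (1.78, adjusted p = 1.61e-06). Cntfr, a receptor chain for CLCF1, was singled out after its values were seen. It had 0.429 to 0.662 FPKM in the sham mice, 1.58, 2.27 and 1.95 at 6 h (log2FC 0.94, adjusted p = 0.00236) and 0.301 to 0.374 at 24 h, the time at which Clcf1 was highest. Of the 5 receptor genes of the list that were tested, the counts that rose were 2 at 6 h, 1 at 24 h and 3 at 72 h, while 0 fell. Of all genes tested, 11.6%, 26.2% and 53.1% were called higher at these times and 16.8%, 11.4% and 24.2% lower. The shares that rose at 24 h and 72 h were thus not far from those of all genes.

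Stat3, at chr11:100885098-100939540, had 35.7, 35.1 and 37.7 FPKM in the sham mice, 48.0, 38.4 and 37.1 at 10 min and 38.0, 33.7 and 35.6 at 1 h. The 6 h mice had 106, 71.2 and 101, the 24 h mice 76.1, 66.9 and 98.5, and those of 72 h 54.8, 59.9 and 52.8. The mice from 6 h on all lay above all earlier mice, and the 72 h mice lay below all mice of 6 h and 24 h. Stat3 rose at 6 h (log2FC 1.31, SE 0.15, adjusted p = 0.00172), at 24 h (log2FC 1.11, SE 0.14, adjusted p = 0.00411) and at 72 h (log2FC 0.61, SE 0.069, adjusted p = 5.21e-05). It was lower at 72 h than at 6 h (log2FC -0.70, adjusted p = 0.00403) and than at 24 h (log2FC -0.50, adjusted p = 0.0313). The last call was lost without replicate 1 at 24 h or without any 1 of the 72 h mice, with adjusted p from 0.0614 to 0.110, and with every mouse scaled to the same FPKM sum (0.0618). The genes with the most similar course over the 18 mice were Sema3f (r = 0.97), Rcan1 (0.96) and Osmr (0.96), and those of Osmr were Rcan1 (0.99), D730005E14Rik (0.99) and Cxcl5 (0.98). Stat3 shares 72 bases with Stat5a on the opposite strand, and whether counting used the strand is not given in the sources used here.

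Among the other STATs, Stat2, a STAT of interferon signalling, was called at 72 h alone (log2FC 1.00). Stat5b fell at 6 h (log2FC -0.42, adjusted p = 0.0312) and at 72 h (log2FC -0.38, adjusted p = 7.90e-04), and Stat5a was not called at any time, with 6.21 to 7.24 FPKM in the sham mice and 6.51 to 6.92 at 72 h. Among the kinases, Jak2, which gp130 and growth hormone receptors use, had 8.07 to 9.18 FPKM in the sham mice and 29.7, 15.0 and 18.6 at 6 h (log2FC 1.13, adjusted p = 0.0107), with replicate 1 highest as for Osm. Jak1 was called at 72 h alone (log2FC 0.43, adjusted p = 5.38e-04). Tyk2, which interferon receptors use, fell and then rose, with a log2FC of -0.51 at 6 h (adjusted p = 0.00687) and 0.81 at 72 h (adjusted p = 9.13e-06).

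Of the 32 tested genes on the lists of other ligands, receptors, JAKs, STATs and inhibitors, out of 38 listed, 0 were called at 10 min, where 5 had an unadjusted p under 0.05. Il6 alone was called at 1 h. At 6 h 11 rose and 4 fell (all genes, 11.6% and 16.8%), at 24 h 8 rose and 0 fell (26.2% and 11.4%), and at 72 h 22 rose and 3 fell (53.1% and 24.2%), so that the share that rose at 24 h was close to that of all genes. Their median log2FC was 0.18 at 6 h, 0.23 at 24 h and 0.53 at 72 h, beside -0.08, 0.13 and 0.29 for all genes tested. Of the 4 phosphatases on the lists, Ptpn1, Ptpn2 and Ptpn6 were called higher at 6 h, 24 h and 72 h, while Ptpn11 rose at 6 h (log2FC 0.49, adjusted p = 0.0202) and fell at 72 h (log2FC -0.20, adjusted p = 0.0356). Ptpn2 and Ptpn11 were singled out after their values were seen. Ptpn6, encoding SHP-1, a phosphatase of blood cells, had 1.51 to 2.09 FPKM in the sham mice and 24.8, 28.6 and 26.9 at 72 h (log2FC 3.32, adjusted p = 2.68e-08). Ptpn1, encoding PTP1B, which acts on JAK2 and TYK2, rose at 6 h (log2FC 0.92), 24 h (1.22) and 72 h (2.07). The count at 6 h fell from 15 to between 6 and 8 when any 1 sham mouse was left out, and that at 24 h from 8 to 2 or 3. All genes called fell in the same fits, at 6 h from 3776 to between 1640 and 1840 and at 24 h from 5012 to between 1628 and 2114. Without replicate 3 at 1 h, the count of pathway genes at 1 h was 2 in place of 1, and that of all genes 177 in place of 96.

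**Figure D3:**
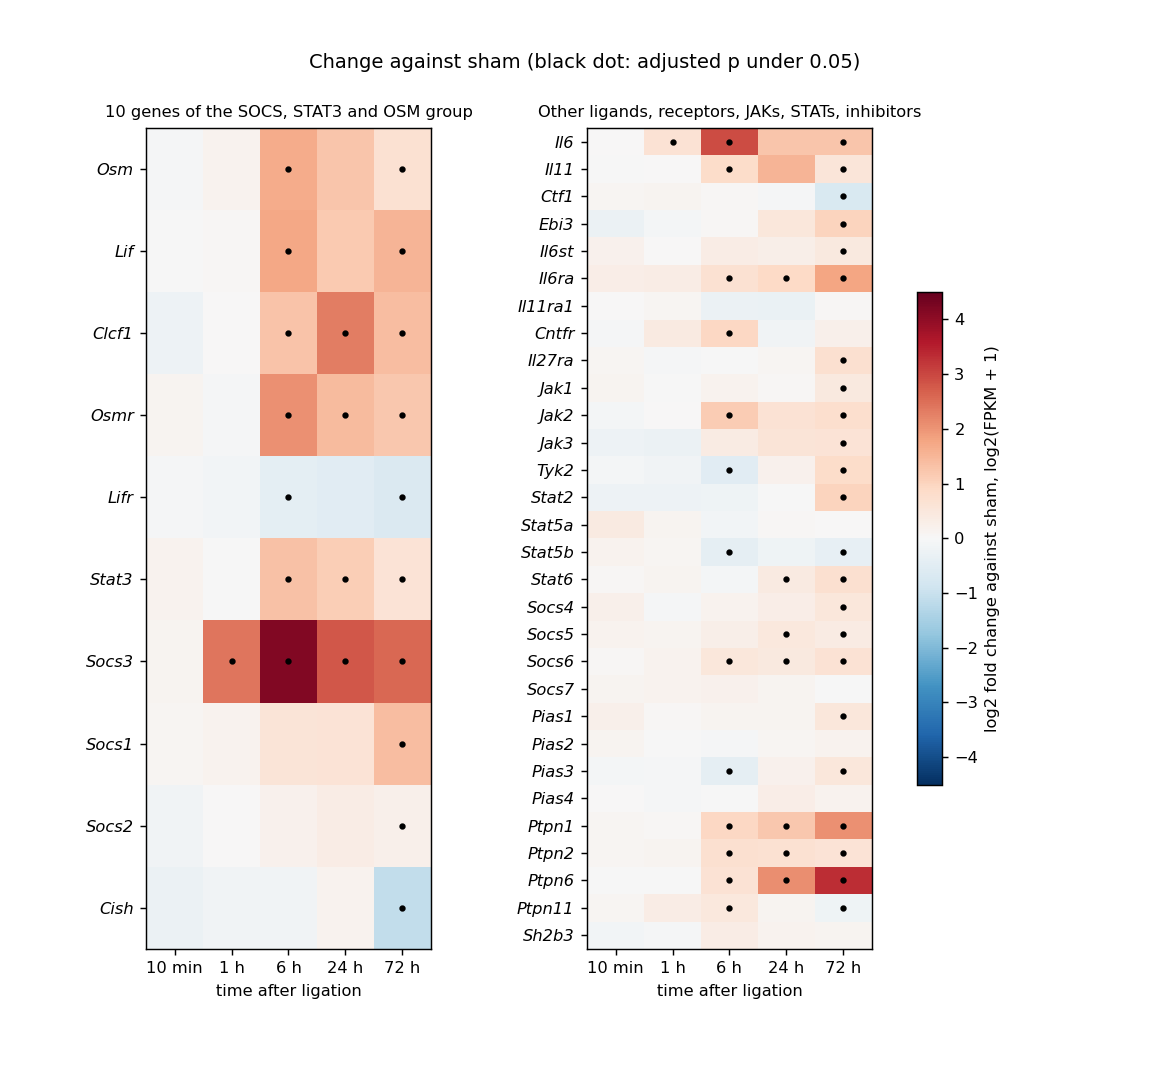
log2FC against sham on the log2(FPKM + 1) scale (colour) at 5 times (columns) for the 10 genes (left) and 30 genes of the pathway lists (right), with a black dot where the adjusted p is under 0.05. Socs3 is called from 1 h on with log2FC from 2.41 to 4.17, Cish is called at 72 h alone with -1.12, and Il6 is the single gene on the right with a dot at 1 h.

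The inhibitors showed the earliest and the latest changes of the 10 genes. Socs3, at chr11:117966079-117970047, had 1.64, 1.72 and 1.48 FPKM in the sham mice and 1.94, 1.66 and 1.88 at 10 min. At 1 h it had 13.8, 11.8 and 13.0, a narrow group that did not overlap with either, and the ratio of means to sham was 7.97. In the 6 h group the levels were 87.3, 28.4 and 39.1, in the 24 h group 12.2, 7.44 and 51.6, and in the 72 h group 13.2, 15.6 and 15.1. Socs3 rose at 1 h (log2FC 2.41, SE 0.083, adjusted p = 1.04e-05), 6 h (log2FC 4.17, SE 0.36, adjusted p = 6.59e-04), 24 h (log2FC 2.79, SE 0.61, adjusted p = 0.0150) and 72 h (log2FC 2.58, SE 0.087, adjusted p = 5.12e-08). The rise at 24 h was not called without any 1 of the sham mice, with adjusted p from 0.0530 to 0.0581. Socs3 was higher at 1 h than at 10 min (log2FC 2.29, adjusted p = 1.38e-04), higher at 6 h than at 1 h (log2FC 1.77, adjusted p = 0.0164) and lower at 72 h than at 6 h (log2FC -1.59, adjusted p = 0.00379).

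At 1 h Socs3 was thus raised in 3 of 3 mice while the levels of Stat3, Osmr, Lifr, Osm, Lif and Clcf1 overlapped with those of the sham mice. The rise from 1 h to 6 h was not called without replicate 2 or 3 at 1 h (adjusted p of 0.0659 and 0.0537). The course of Socs3 between 6 h and 72 h depended on replicate 3 at 24 h. With it, 72 h against 24 h had a log2FC of -0.21, and without it 0.56 (adjusted p = 0.0348), while 24 h against 6 h was -1.38 with it and -2.15 without it (adjusted p = 0.0359). The genes most like Socs3 over the 18 mice were Ptgs2 (r = 0.98), which encodes cyclooxygenase-2, Fosl2 (0.95) and Nfil3 (0.95). The neutrophil sum at 1 h was 17.2 to 30.7, and S100a8 and S100a9 were the neutrophil markers called at that time, 2 of 7. Their part in the level of Socs3 was not tested.

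Socs1, at chr16:10782240-10785536, was low throughout. It had 0.254, 0.563 and 0.368 FPKM in the sham mice, 0.250 to 0.699 at 10 min and 0.503 to 0.664 at 1 h. Later groups had 2.07, 0.703 and 0.753 (6 h), 0.891, 0.631 and 2.12 (24 h) and 2.22, 2.70 and 3.15 (72 h). The 72 h mice lay above all others, and replicate 1 at 6 h and replicate 3 at 24 h stood apart from the rest of their groups. Socs1 rose at 72 h (log2FC 1.40, SE 0.12, adjusted p = 1.11e-05), with log2FC of 0.59 at 6 h (adjusted p = 0.0893) and 0.61 at 24 h (adjusted p = 0.0811, or 0.0453 without replicate 2 of that group). It was higher at 72 h than at 6 h (log2FC 0.81, adjusted p = 0.0134) and than at 24 h (log2FC 0.79, adjusted p = 0.0336). The call against 24 h held without replicate 3 at 24 h and was lost without any 1 other of the 6 mice (adjusted p from 0.0533 to 0.111). The call against 6 h was lost without replicate 3 at 6 h (0.0528) or replicate 3 at 72 h (0.0505). Scaling moved both: against 6 h the log2FC was 0.57 (adjusted p = 0.0740) under median-of-ratios scaling and 0.24 (0.396) under quantile normalization, and against 24 h it was 0.42 (0.150) under the latter. Without the filter the adjusted p against 24 h was 0.0623. Socs1 was thus highest at 72 h. At that time all 8 monocyte and macrophage markers were also raised (median log2FC 3.94). So were all 7 fibroblast markers (4.96), the 2 tested T cell markers (1.27) and 53.1% of all genes. The part of any of these cells in the level of Socs1 was not tested.

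Socs2, at chr10:95385362-95417180, was the flattest of the 10. It had 19.4, 19.6 and 20.0 FPKM in the sham mice, 18.2, 17.3 and 16.8 at 10 min and 19.5 to 21.1 at 1 h. The 6 h mice had 24.0, 22.5 and 21.2, the 24 h mice 26.2, 27.7 and 21.1, and those of 72 h 21.9, 23.7 and 23.8. The small rise at 72 h was called (log2FC 0.23, SE 0.063, adjusted p = 0.0101), and its direction reversed to -0.05 under median-of-ratios scaling and to -0.09 under quantile normalization, uncalled in both. Its log2FC was 0.19 at 6 h (adjusted p = 0.110) and 0.32 at 24 h (adjusted p = 0.0598, and 0.00502 without replicate 3 of that group). The genes most like it were Acta1 (r = 0.91), Xirp2 (0.85) and Adamts8 (0.85), of which Acta1 and Xirp2 encode proteins of striated muscle.

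Cish, at chr9:107296026-107302784, was the one inhibitor that fell. It had 54.2, 50.8 and 49.0 FPKM in the sham mice, 58.9, 46.8 and 28.2 at 10 min and 45.2, 54.7 and 38.8 at 1 h. In the 6 h group the levels were 43.2, 50.8 and 43.9, in the 24 h group 64.8, 63.3 and 44.9, and in the 72 h group 27.6, 20.8 and 21.3. The 72 h mice lay below all others, with 45.3% of the sham mean, and the next lowest was replicate 3 at 10 min. Cish fell at 72 h against sham (log2FC -1.12, SE 0.11, adjusted p = 1.78e-05), against 6 h (log2FC -0.96, adjusted p = 2.97e-04) and against 24 h (log2FC -1.27, adjusted p = 0.00133), and these calls held under all alternatives run. At 24 h against sham it had a log2FC of 0.15 with an adjusted p of 0.446, and without replicate 3 of that group 0.32 with an adjusted p of 0.0175. The cardiomyocyte sum at 72 h was also below that of all other mice. Antisense genes overlap Cish by 1459 bases (Gm17041) and 1167 bases (Gm17040), and reads of either strand cannot be told apart where counting ignores the strand.

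Receptors that signal through STAT5, the pathway on which CIS and SOCS2 act, were taken as a further list with Igf1 and Bcl6, which are known as genes regulated by STAT5, and 9 genes of it were tested. At 6 h and at 24 h 4 rose and 2 fell, and at 72 h 6 rose and 2 fell, beside 11.6% and 16.8%, 26.2% and 11.4%, and 53.1% and 24.2% of all genes. The shares at 72 h were thus not far from those of all genes. Those that fell at each of these times were Ghr, the growth hormone receptor, and Prlr, the prolactin receptor. Ghr had 300 to 327 FPKM in the sham mice and 188, 181 and 170 at 72 h (log2FC -0.82, adjusted p = 1.09e-05). Those with the largest rises at 72 h were Il7r (log2FC 4.48), Csf2rb (3.32), Csf2ra (2.54) and Igf1 (2.49), of which Il7r, Csf2rb and Csf2ra are receptor chains of leukocytes. None of the 9 was called at 10 min or 1 h by limma, with 3 and 1 at an unadjusted p under 0.05.

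**Figure D4:**
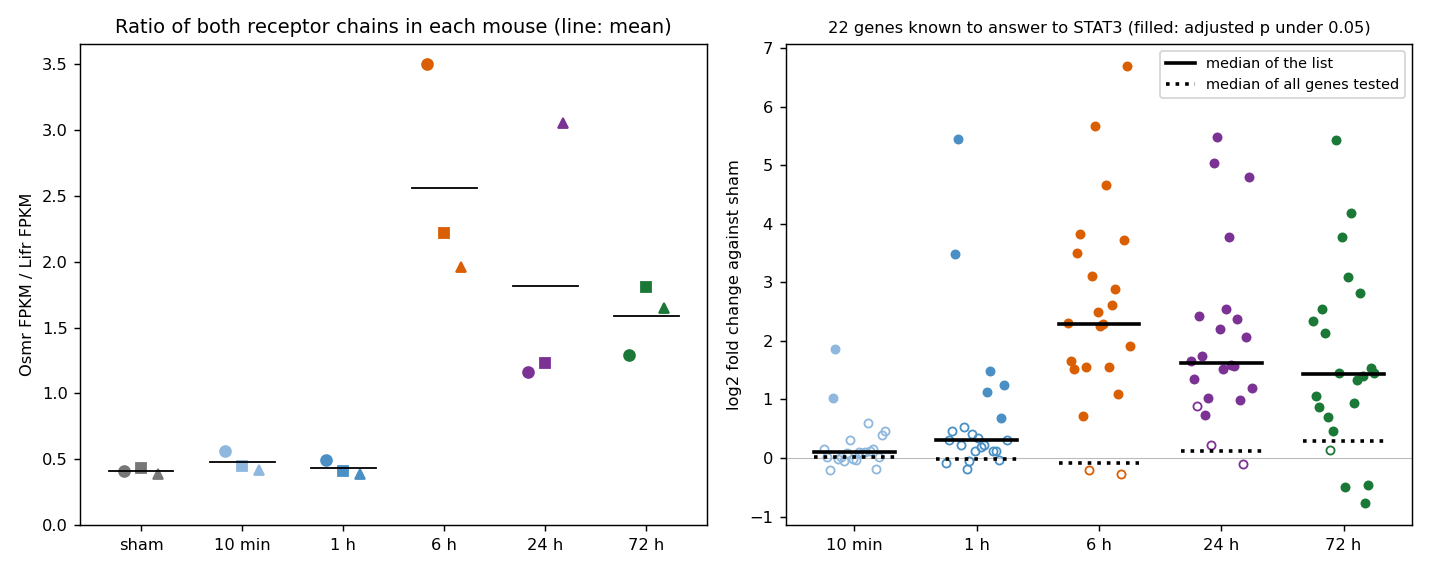
Left, the ratio of Osmr to Lifr FPKM (vertical axis) in each mouse by group, with circles, squares and triangles for replicates 1, 2 and 3 and a line at the mean, which lies above 1 in all mice from 6 h on. Right, log2FC against sham of 22 genes known to answer to STAT3 at 5 times, filled where the adjusted p is under 0.05, with the median of the list (line, 2.29 at 6 h) and of all genes tested (dotted line, -0.08 at 6 h).

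Genes known to answer to STAT3, a list of 24 of which 22 were tested, are given with the share of all genes called higher at each time. At 10 min, when 0.248% of all genes were higher, 2 of the 22 rose, Fos and Junb, which are immediate early genes that answer to many signals. By 1 h 6 had risen (all genes, 0.669%). The count was 20 at 6 h (11.6%), 19 at 24 h (26.2%) and 18 at 72 h (53.1%), when 3 fell (24.2%). Their median log2FC was 0.30 at 1 h, peaked with 2.29 at 6 h, and was 1.62 at 24 h and 1.43 at 72 h. The largest changes were those of the metallothionein Mt2 (34.4 to 36.5 FPKM in the sham mice and 3488 to 4027 at 6 h, log2FC 6.70), the iron-binding lipocalin Lcn2 (log2FC 5.66 at 6 h), Fos (log2FC 5.45 at 1 h) and Timp1, an inhibitor of metalloproteinases (log2FC 5.42 at 72 h). Mt2 and Lcn2 had returned most of the way by 72 h, with 94.4 to 112 and 10.9 to 14.7 FPKM, while Timp1 had not. Lcn2 had 264, 255 and 262 FPKM in replicates 1, 2 and 3 at 6 h, beside neutrophil sums of 1006, 118 and 379 in the same mice, and the part of neutrophils in its level was not tested. The genes that fell at 72 h were Lrg1, Mt1 and Vegfa. Members of this list answer to other factors too, and the share of their change that runs through STAT3 was not tested.

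The order of the group means summarises the courses. For Socs3 it was sham, 10 min, 1 h, 72 h, 24 h and 6 h from low to high, with mean and SD of 1.61 ± 0.124, 1.83 ± 0.143, 12.9 ± 0.979, 14.6 ± 1.26, 23.8 ± 24.2 and 51.6 ± 31.4 FPKM (n = 3 mice each). The neighbours sham and 10 min, 72 h and 24 h, and 24 h and 6 h were not called apart, and 1 h and 72 h were not tested against each other. For Osmr the means were 12.0 ± 2.58 at 1 h, 12.3 ± 0.860 in sham, 13.7 ± 1.97 at 10 min, 30.1 ± 3.50 at 72 h, 35.7 ± 11.5 at 24 h and 55.5 ± 9.15 at 6 h, where none of the first 3 was called apart from another and neither were 72 h and 24 h or 24 h and 6 h. For Lifr they ran from 19.1 ± 1.12 at 72 h through 21.5 ± 4.88 at 24 h and 22.4 ± 3.22 at 6 h to 27.8 ± 2.51 at 1 h, 28.9 ± 2.91 at 10 min and 30.3 ± 3.18 in sham, and no pair of neighbours was called apart.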

How the data were processed

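The deposited table gives FPKM per gene symbol for 18 mice. The authors used cutadapt 1.18 for trimming and HISAT2 2.1.0 for mapping to mm10, and estimated FPKM with StringTie 1.3.4d, and the annotation is not given in the sources used here. FPKM were used as deposited. Groups came from the sample titles, and 4 column headers with typing slips were matched to the single title each could stand for. The 10 genes, the lists and the tests were chosen with earlier results of these data known. The genes named from a list were its called genes with the largest log2FC against sham, at most 4, beside the main ligands, receptors, JAKs and STATs. Named beyond this rule, after their values were seen, were Cntfr, Ptpn2, Ptpn11, Ghr, Prlr, Junb, Lrg1, Mt1 and Vegfa. A few list members are included in the counts but not reported by name.

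Each pair of groups was fitted on its own 6 mice by limma 3.58.1 in R 4.3.3 on log2(FPKM + 1), with eBayes and a variance trend, for the 13333 genes that reached 1 FPKM in any mouse, less those without spread. In data simulated with the mean and spread of the sham mice, 200 of 200 genes with a log2 change of 2 among 13333 were called. The changed genes had a mean log2(FPKM + 1) above 2 in the sham mice, and Osm, Lif, Clcf1, Socs1 and Socs3 lay under that level. The wider spread of the 6 h and 24 h groups was not simulated. The simulation therefore gives no measure of power for these genes or groups. Likeness is Pearson's r of log2(FPKM + 1) over 18 mice. Alternatives were a pseudocount of 0.1, other filters, 3 scalings, all 18 mice in one fit, a replicate block, no variance trend and leaving out each mouse. Gene positions are those of GENCODE M21. Since there are no counts, precision comes from the spread between 3 mice.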

Additional observations from a re-analysis of the deposited data

Results flagged for a closer look

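Within the course after ligation, 5 steps between neighbouring late times were larger than the spread between mice by limma's test of the step itself, so that the change against sham was not the same at both times. Clcf1 was higher at 24 h than at 6 h by 1.02 on the log2 scale. From 24 h to 72 h its difference was -0.90, that of Stat3 was -0.50, that of Socs1 was 0.79 and that of Cish was -1.27. Of these, the step of Cish and the step of Clcf1 from 24 h to 72 h stayed called when any 1 mouse was left out. Of all genes tested, 14.4% were called in either direction from 6 h to 24 h and 43.2% from 24 h to 72 h. The genes described here were called in no larger share at either step, so the number of these steps does not stand out from the background.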

How the results depend on the processing

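Each of the 10 genes was followed through 10 comparisons. There were 1490 checks of a gene in a comparison under another setting or without 1 mouse. Of these, 1401 kept the side of the threshold, 56 lost a call and 28 gained one. In 5 the direction reversed with a call in the main fit, the check or both. The 1401 include checks in which the direction changed while neither fit was called, such as some of Clcf1 at 1 h against sham (log2FC from -0.11 to 0.23). The calls of Socs3 at 1 h against sham and 10 min, and the 10 calls at 72 h apart from Osm and Socs2, were among those kept in all checks. Socs2 reversed at 72 h against sham to -0.054 under median-of-ratios scaling and -0.094 under quantile normalization, and at 72 h against 6 h (0.04) to -0.33 and -0.29. Osm at 72 h against sham was not called with all 18 mice in one fit. Leaving out 1 mouse gave Socs3 at 72 h against 24 h values from -0.76 to 0.56, the highest without replicate 3 at 24 h. With all 18 mice in one fit the count of members was 9 in place of 4 at 24 h against sham and 3 in place of 1 at 24 h against 6 h, and the pathway genes were 0 in place of 1 at 1 h and 13 in place of 8 at 24 h. Without the filter the pathway genes at 24 h were 5, and at 24 h against 6 h 0 members were called without the filter, under median-of-ratios scaling, under quantile normalization and with the replicate block. All genes called at 24 h against 6 h went from 1922 to 1107, 803, 642 and 1 in these settings, in that order. With all 18 mice in one fit they were 5850. Leaving out 1 mouse gave counts of members from 3 to 8 at 24 h against sham, 3 to 6 at 6 h against 1 h, 0 to 2 at 24 h against 6 h and 2 to 7 at 72 h against 24 h, and counts of pathway genes from 1 to 2 at 1 h, 6 to 15 at 6 h and 2 to 10 at 24 h. All genes called moved too in some of these fits. At 24 h against sham they went from 5012 to between 1628 and 2114 without 1 sham mouse. At 6 h against 1 h they went from 2731 to between 820 and 1177 without 1 of the 1 h mice. At 24 h against 6 h they went from 1922 to 228, 2 and 2 without replicates 1, 2 and 3 at 6 h. Such fits leave 1 group with 2 mice. Asking for 1 FPKM on average left Osm and some other genes of low level without a value.

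The values gave little sign that replicate numbers in the titles pair the mice across groups, and 3 mice per group cannot settle it. The deviations of same-numbered mice correlated between -0.33 and 0.41, in 0 of 10 comparisons were all 3 correlations over 0.1, and in 1 every mouse was closest to its own number. With the replicate block, the log2FC of Clcf1 at 24 h against 6 h was 1.02 with an adjusted p of 0.0973, that of Stat3 at 72 h against 24 h was -0.50 with 0.0508, and that of Lif at 24 h against sham was 1.16 with 0.0499. The cause of these changes was not tested. Without counts, a level near 0 such as that of Osm in the sham mice has no known precision.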
